A study of Mus musculus with 18 samples.

Results

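The cartilage collagens are 8 genes whose chains build the collagen network of hyaline cartilage: Col2a1, Col9a1, Col9a2, Col9a3, Col11a1, Col11a2, Col10a1 and Col27a1. They were taken by name, by a rule with no threshold on a measured value, from 49184 mouse genes for which transcripts were listed, and all 8 passed the filter on low counts. RNA-seq had been performed on knee cartilage from C57bl6 mice, 12 weeks old, in a model in which one load ruptures the anterior cruciate ligament (ACL) of the right knee. The 18 libraries fell into 5 groups: right injured knees at day 1 (n = 3) and at day 7 (n = 3), contralateral left knees of injured mice at day 1 (n = 3) and at day 7 (n = 3), and knees of naïve mice that were not loaded, labelled as day 7 (n = 6). All mice were wild-type. The tissue was cartilage of the femoral condyles, taken as caps down to the tidemark, the border with calcified cartilage. Per the study's methods each library pooled cartilage from 2 mice at day 1, from 4 mice at day 7 and from 2 knees in the naïve group, which came from 6 mice, whereas the series' design text gives 4 mice for every sample. The contralateral knee belongs to an animal with an injured limb and is thus not an untouched control.

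The depth was 16074762 to 41794005 estimated counts per library (median 25465706). Levels of a gene are given as CPM, its counts relative to the library total after scaling by the trimmed mean of M-values (TMM). The levels of the collagens are compared with each other as TPM, the authors' unit corrected for transcript length, and a ratio is also given on estimated counts. Marker genes are summed and ranked by CPM, which is not corrected for length. Library 1 of the day 7 contralateral group stood apart, in its makeup and in the collagens themselves. Its 10 most abundant genes held 42.5% of its counts against 16.6 to 29.8% in the other 17 libraries, its TMM factor was 0.696, and 7 of the 8 collagens were at their highest in its group there. Per the study's methods, 1 unnamed ACL library with a low mapping rate was removed from its analysis. All 18 libraries were used here, and whether the removed one is among them is not known. The unmatched share of counts was highest in day 7 contralateral library 1, at 3.90%. Differences from the day 7 contralateral group are therefore given with and without that library. The labels do not say which libraries share animals and the naïve libraries hold knees of the same 6 mice, so p-values measure the spread between these libraries only.

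The labelled cell type, the chondrocyte, was checked against its markers. All 10 chondrocyte markers were detected in every library, and their summed level in naïve cartilage was 1372 CPM at the lowest, 2427 at the median and 2599 at the highest. Prg4, which encodes the surface lubricant lubricin, had the highest CPM of them in 16 libraries and Comp, a pentameric matrix protein, in 2. Markers of other tissues were present as well. Marrow and blood markers summed to 39085 to 50122 CPM in the naïve libraries, led by the globin gene Hbb-bs, and osteoblast markers summed to 9146 to 17621 CPM, nearly all of it from Col1a1. No marker of any list was at 0 in any library, so the samples held RNA of marrow, bone, muscle and connective tissue besides that of chondrocytes.

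Type II collagen, a homotrimer of the Col2a1 chain, forms the bulk of the cartilage fibril. Type XI collagen, assembled from the Col11a1 and Col11a2 chains with a form of the Col2a1 chain, sits inside the fibril and limits its width, while type IX collagen, made of Col9a1, Col9a2 and Col9a3, decorates its surface. Type X collagen (Col10a1) is a network-forming collagen of hypertrophic chondrocytes, and type XXVII collagen (Col27a1) is a fibrillar collagen of developing cartilage. Col2a1 is spliced with or without an exon 2 that encodes a cysteine-rich propeptide domain. The form with the exon (type IIA) is made by chondroprogenitors and the form without it (type IIB) by mature chondrocytes. Col11a2 is spliced in the same manner at a run of alternative exons that encode part of its amino-terminal propeptide.

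The alternative exons are shown because the transcripts of Col2a1 and Col11a2 are told apart by them. The Col2a1 exon 2 lies on the minus strand at chr15:98000403-98000606 (GRCm38) and is held by the transcript ENSMUST00000023123. The 3 Col11a2 exons lie on the plus strand at chr17:34045771-34045848 (78 bases), chr17:34046440-34046502 (63 bases) and chr17:34047098-34047277 (180 bases). Capitals mark the alternative exon, and the 15 lower-case bases on each side are the neighbouring exons in the spliced transcript.
Col2a1 exon 2: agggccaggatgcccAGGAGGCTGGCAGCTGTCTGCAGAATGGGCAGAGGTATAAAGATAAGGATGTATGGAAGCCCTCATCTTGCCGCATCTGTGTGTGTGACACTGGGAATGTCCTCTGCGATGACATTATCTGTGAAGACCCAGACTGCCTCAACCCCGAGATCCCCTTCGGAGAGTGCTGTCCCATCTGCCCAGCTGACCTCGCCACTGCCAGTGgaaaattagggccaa
Col11a2 78-base exon: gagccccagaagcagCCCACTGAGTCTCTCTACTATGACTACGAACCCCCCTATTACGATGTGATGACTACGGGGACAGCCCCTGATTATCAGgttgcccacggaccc
Col11a2 63-base exon: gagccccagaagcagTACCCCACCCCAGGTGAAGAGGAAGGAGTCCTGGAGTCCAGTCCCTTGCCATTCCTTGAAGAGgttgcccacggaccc
Col11a2 180-base exon: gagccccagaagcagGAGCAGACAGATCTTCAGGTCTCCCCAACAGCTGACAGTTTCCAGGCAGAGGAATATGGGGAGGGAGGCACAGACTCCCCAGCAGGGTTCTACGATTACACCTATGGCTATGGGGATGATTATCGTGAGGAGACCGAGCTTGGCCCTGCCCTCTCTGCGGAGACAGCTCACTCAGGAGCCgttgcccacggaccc
All 4 lengths are whole numbers of codons (68, 26, 21 and 60), so each exon can be left out without a shift of the reading frame. The same flanks border the 3 Col11a2 exons, since each was joined directly to the exons before and after the alternative run in the transcript shown.

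In naïve cartilage the order of the collagens was led by Col2a1. Its level was 254 TPM at the lowest, 322 at the median and 593 at the highest (mean 356 ± 122, SD, n = 6), which made up 58.7 ± 3.05% (SD, n = 6) of the summed TPM of the 8 genes. The next levels were Col11a2 at 65.9 ± 19.6, Col10a1 at 60.4 ± 28.8 and Col11a1 at 45.0 ± 12.7 TPM (SD, n = 6). The 3 type IX genes lay together, at 24.3 ± 6.28 TPM for Col9a1, 23.8 ± 4.92 for Col9a2 and 22.1 ± 4.86 for Col9a3, and Col27a1 was lowest at 7.46 ± 2.39 (SD, n = 6). Col2a1 was above Col11a2 in 18 of 18 libraries, Col11a1 above Col9a1 in 18 of 18, and Col9a3 above Col27a1 in 18 of 18. Neighbours in the middle of the order did not keep their place: Col11a2 exceeded Col10a1 in 13 of 18 libraries, Col10a1 exceeded Col11a1 in 12, and Col9a1 exceeded Col9a2 in 13. Col1a1, the main chain of type I collagen of bone and fibrous tissue, had a naïve level of 1093 ± 352 TPM (SD, n = 6) and exceeded Col2a1 in all 18 libraries. Fewer cells of a type and less RNA per cell cannot be told apart in bulk samples such as these.

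The naïve libraries themselves spread by 1.55- to 1.94-fold between the lowest and the highest in 7 of the genes. Col10a1 spread more, by 2.85-fold. Naïve library 3 was the highest of its group for all 8 genes. In the day 1 injured group, library 3 was likewise the highest and library 2 the lowest for all 8. The other groups were less uniform: the day 7 injured library 3 was the highest for 2 genes and the lowest for 4, and the day 1 contralateral library 2 was the highest for 5 and the lowest for 1.

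**Figure D1:**
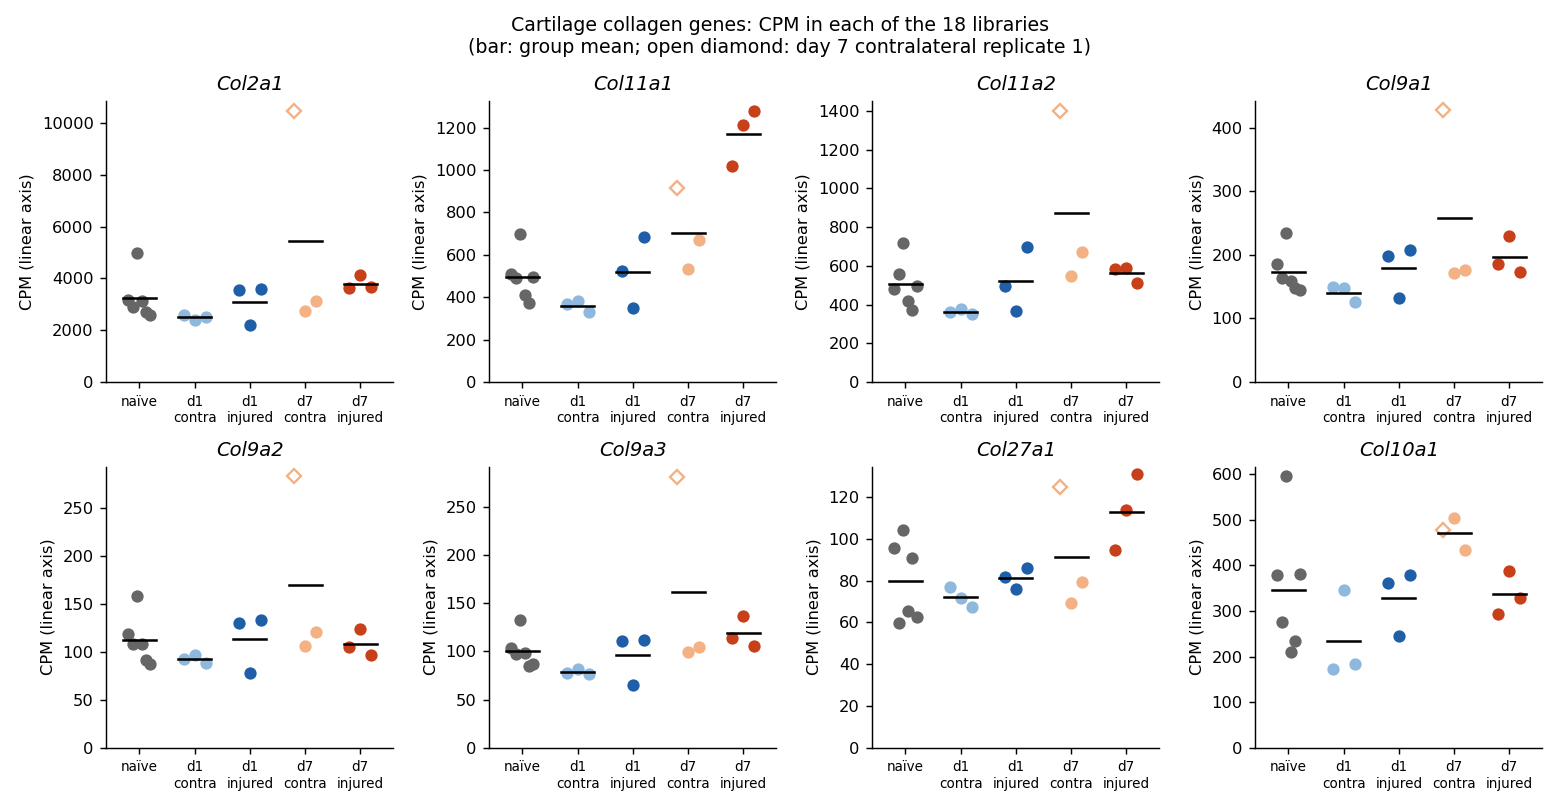
Level of each cartilage collagen in every library (CPM, linear axes that start at 0) in the 5 groups; each point is a library, short lines are group means, and the open diamond is day 7 contralateral library 1. The 3 day 7 injured libraries lie above all others of the naïve, day 1 injured and day 7 contralateral groups for Col11a1, and overlap with the naïve libraries for the remaining 7 genes. The share of all genes without such overlap is not given here.

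The first comparison asked how the injured joint at day 7 differed from naïve cartilage. Of the 8 cartilage collagens, Col11a1, the α1 chain of type XI collagen, rose and passed the test, by 2.39-fold. Col2a1, the 3 type IX genes, Col11a2 and Col10a1 did not pass it, and Col27a1 passed on FDR but stayed under the fold limit. A gene was called when the FDR of edgeR's quasi-likelihood test, adjusted over 21129 genes, was at most 0.05 and the change at least 1.5-fold. By this rule 1 of 8 collagens was higher and 0 were lower, against 10.4% of all tested genes higher and 6.11% lower. The median log2 change of the 8 genes was 0.23, beside -0.04 over all genes.

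These values depend on the scaling between libraries. The TMM factors were 0.829 to 0.852 in day 7 injured and 0.962 to 1.12 in naïve libraries, and they raise every injured CPM against scaling by library totals. With library totals in place of TMM the median over all genes was -0.35, that of the 8 collagens was -0.09, and 6.0% of genes were called higher and 21.6% lower. Col11a1 was called higher under either scaling, with a log2 change of 0.95 ± 0.18 by library totals (SE, edgeR FDR 0.000922, 1.93-fold). The signs of Col2a1, Col11a2, Col9a1 and Col9a3 turned, to log2 changes of -0.06, -0.14, -0.11 and -0.06, and none of the 4 was called under either scaling. Group means of TPM, which is also relative to the library total, were likewise lower after injury than in naïve knees for these genes, at 335 ± 51.6 against 356 ± 122 TPM for Col2a1 and at 58.4 ± 3.62 against 65.9 ± 19.6 for Col11a2 (SD, n = 3 and 6). For Col2a1, however, the naïve median TPM given above lay below the injured mean. The naïve mean includes library 3, the highest of its group. The direction of these 4 genes was therefore not settled.

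Among the fibril-core chains, Col11a1 was at 372 CPM at the lowest, 492 at the median and 696 at the highest in the naïve libraries. In the 3 day 7 injured libraries it was at 1018, 1215 and 1279.6 CPM. Every injured library was above every naïve one, and the log2 change was 1.26 ± 0.19 (SE; 95% interval 0.86 to 1.66; edgeR FDR 0.000121). The same gene was at 369, 380.3 and 329 CPM in the day 1 contralateral, 522, 348 and 684 in the day 1 injured and 917, 531 and 668 in the day 7 contralateral libraries. In CPM no library outside the day 7 injured group reached its range. On the TPM scale, where the naïve range was 35.9 to 68.7, the separation did not hold. Day 7 injured library 1 was at 59.6 TPM and libraries 2 and 3 were at 90.0 and 98.9. Day 1 injured libraries 1, 2 and 3 were at 60.6, 44.8 and 106.4 TPM, and the last lay above every day 7 injured library. Day 7 contralateral library 3, at 61.3 TPM, exceeded day 7 injured library 1, while libraries 1 and 2 of its group, at 36.4 and 58.3, did not.

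Col2a1, the principal fibril chain, was at 2595 CPM at the lowest, 2992 at the median and 4989 at the highest in the naïve libraries and at 3611, 4116 and 3673 CPM at day 7 after injury. The groups overlapped, with all injured values inside the naïve range. The log2 change was 0.25 ± 0.20 (SE; 95% interval -0.17 to 0.67; edgeR FDR 0.358), an interval that leaves room for no change and for a moderate increase. For Col11a2, the partner of Col11a1 in type XI collagen, the naïve range was 369.7 to 718 CPM (median 489.8) and the injured values were 581, 591 and 512. These too lay inside the naïve range, and the log2 change was 0.17 ± 0.19 (SE; 95% interval -0.24 to 0.57; edgeR FDR 0.537).

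The type IX genes, which encode the fibril-surface chains, overlapped in the same way. Naïve Col9a1 was 144 to 234 CPM (median 162) and injured 186, 230.2 and 173 (log2 change 0.21 ± 0.16, SE, edgeR FDR 0.357). Col9a2 ranged over 87.2 to 158 CPM in naïve libraries (median 108) and was at 105, 124 and 96.6 after injury (log2 change -0.03 ± 0.18, SE, edgeR FDR 0.917). Col9a3 ranged over 85.3 to 132 CPM in the naïve group (median 97.9) and was at 114, 137 and 105 after injury (log2 change 0.26 ± 0.16, SE, edgeR FDR 0.239). Of the 9 injured values 8 lay inside the naïve range of their gene. Col9a2 had a log2 change of 0.10 in place of -0.03 when the average transcript length of each library entered the model, and of -0.34 by library totals (edgeR FDR 0.111), so its sign was not settled either.

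Col10a1, the hypertrophic collagen, had a naïve range of 209 to 595 CPM (median 328) and injured values of 293, 389 and 329. With a log2 change of -0.02 ± 0.30 (SE; 95% interval -0.65 to 0.61; edgeR FDR 0.971), it had the widest interval of the 8 genes. Col27a1 was at 59.8 to 104 CPM in naïve libraries (median 78.2) and at 94.5, 114 and 131 after injury, where 2 of the 3 values exceeded all naïve ones. Its log2 change of 0.52 ± 0.16 (SE; 95% interval 0.18 to 0.87) was 1.44-fold, with an edgeR FDR of 0.0252. The change passed the FDR and missed the fold limit. By library totals it was 0.20 (edgeR FDR 0.364) and passed neither limit. Without naïve library 3 the log2 change was 0.61 (edgeR FDR 0.0089), and without injured library 1 it was 0.64 (edgeR FDR 0.0188), both past the limit.

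**Figure D2:**
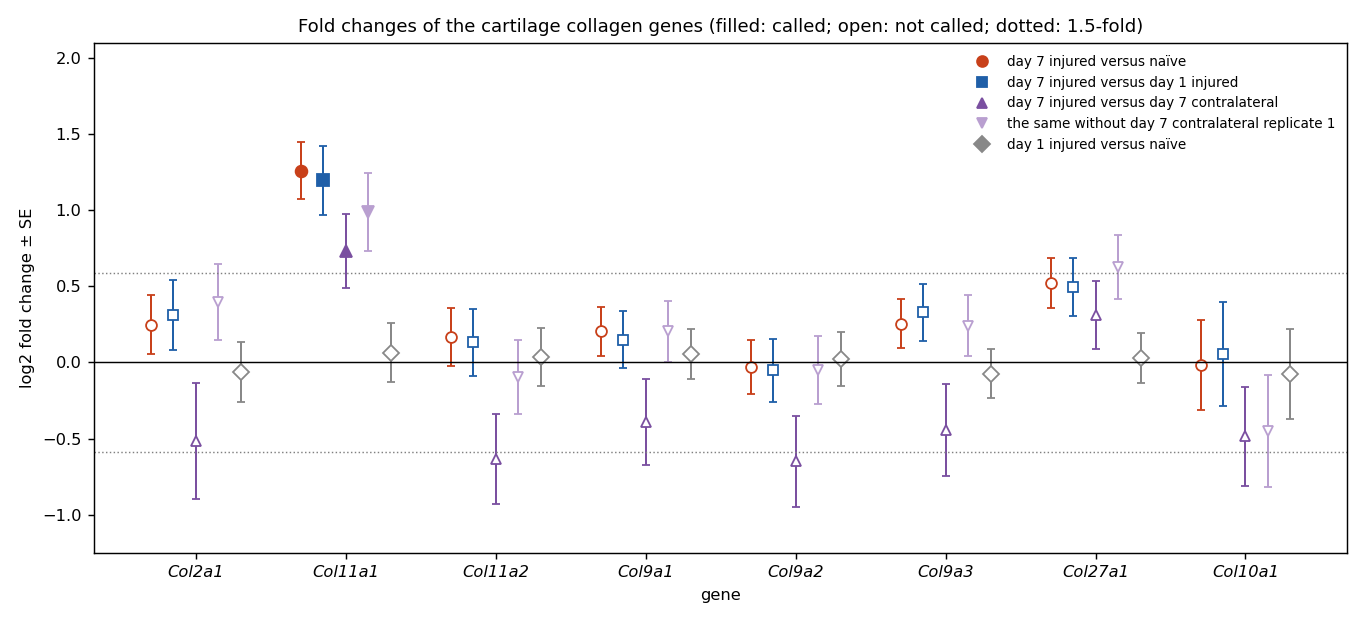
Change of each cartilage collagen (y axis, log2 fold change by edgeR; bars are SE) in 5 comparisons, of which 1 repeats the day 7 injured against contralateral comparison without contralateral replicate 1; filled symbols were called and dotted lines mark 1.5-fold. Col11a1 is the only gene with filled symbols, at 1.26 against naïve, 1.20 against day 1 injured and 0.73 and 0.99 against contralateral knees.

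The second comparison set day 7 injured against day 7 contralateral knees. Col11a1 rose here as well, and 1 of 8 collagens was higher and 0 lower, beside 9.33% and 3.23% of 21262 genes. Its levels of 1018, 1215 and 1279.6 CPM in injured knees stood above the contralateral 917, 531 and 668 CPM, by 1.66-fold (log2 change 0.73 ± 0.24, SE, edgeR FDR 0.0441). Without contralateral library 1 the difference was 1.98-fold (log2 change 0.99 ± 0.25, SE, edgeR FDR 0.0122). Without contralateral library 2 Col11a1 was not called (edgeR FDR 0.175), and Col11a2 and Col9a2 were called lower (log2 change -0.90 and -0.92, edgeR FDR 0.0464 and 0.0453). The share of all genes called lower in that fit is not given here. By library totals Col11a1 was called higher (log2 change 0.65, edgeR FDR 0.0480) and Col9a2 lower (-0.67, edgeR FDR 0.0490), beside 6.75% of genes higher and 6.14% lower. The Col11a1 call was held in 13 of 29 alternative settings, over which the log2 change was 0.55 to 0.99 and the FDR 0.0122 to 0.175.

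The other 7 genes were not called, and for most of them the value depended on contralateral library 1. In that library Col2a1 was at 10448 CPM, against 2739 and 3128 in the other 2 contralateral libraries and 3611, 4116 and 3673 in the injured ones. The Col2a1 log2 change was -0.52 ± 0.38 (SE, edgeR FDR 0.386) with the library and 0.40 ± 0.25 (SE, edgeR FDR 0.319) without it. Col9a1 and Col9a3 likewise went from -0.39 to 0.20 and from -0.44 to 0.24 when it was left out (edgeR FDR 0.377 and 0.346 with it, 0.561 and 0.473 without). Col11a2 had a log2 change of -0.64 ± 0.30 (SE, edgeR FDR 0.153) with the library and -0.09 ± 0.24 (SE, edgeR FDR 0.851) without. Col9a2, with the lowest change of the 8, went from -0.65 ± 0.30 (SE, edgeR FDR 0.146) to -0.05 ± 0.22 (SE, edgeR FDR 0.925). Col10a1 was lower in all 3 injured libraries than in any contralateral one (478, 503 and 433 CPM), but the difference did not pass the test (log2 change -0.48 ± 0.33, SE, edgeR FDR 0.337, and -0.45 ± 0.37, SE, edgeR FDR 0.464, without the library). Col27a1 had a log2 change of 0.31 ± 0.22 (SE, edgeR FDR 0.365), and of 0.63 ± 0.21 (SE, edgeR FDR 0.0524) without the library. On the TPM scale the same library was not far from the rest of its group, with Col2a1 at 462 TPM beside 378 and 357.

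The third comparison followed the injured knee from day 1 to day 7. Col11a1 rose by 2.29-fold (log2 change 1.20 ± 0.23, SE, edgeR FDR 0.00155), and 1 of 8 collagens was higher and 0 lower, beside 9.04% and 6.38% of all genes. All 3 day 7 libraries exceeded the day 1 values of 522, 348 and 684 CPM. On the TPM scale they did not, since day 1 injured library 3, at 106.4 TPM, lay above all 3 day 7 injured libraries. Col27a1 was also above all day 1 values (81.9, 76.2 and 86.1 CPM) without passing the test (log2 change 0.49 ± 0.19, SE, edgeR FDR 0.0719). Col2a1 at day 7 lay above the day 1 values of 3545, 2187 and 3572 CPM too, by little, with a log2 change of 0.31 ± 0.23 (SE, edgeR FDR 0.332). The mean TPM of both genes went the other way. From day 1 to day 7 it was 500 ± 173 and 335 ± 51.6 for Col2a1, and 10.9 ± 2.71 and 8.03 ± 2.24 for Col27a1 (SD, n = 3 each). The remaining 5 genes had log2 changes of -0.05 to 0.33 and none was called. By library totals Col11a1 was still called (log2 change 0.75 ± 0.22, SE, edgeR FDR 0.0114), while Col2a1 had a change of -0.13 and the 7 genes other than Col11a1 lay between -0.50 and 0.05, with none called beside 3.75% of genes higher and 28.6% lower.

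At day 1, no collagen was called by edgeR in either comparison of the injured knee, and neither was any other gene. Against naïve knees 0% of 21129 genes were higher and 0% lower by edgeR, where 959 genes had an unadjusted p under 0.05. The log2 changes of the 8 collagens lay between -0.08 and 0.06 (edgeR FDR at least 0.991), and between 0.06 and 0.21 by library totals, where the median over all genes was 0.13. Col2a1, at 3545, 2187 and 3572 CPM, had 2 values inside the naïve range of 2595 to 4989 and 1 below it, and its 95% interval of -0.49 to 0.36 does not exclude small changes. By DESeq2 0 genes were higher and 15 lower, and by limma-voom 0 in either direction.

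Against the day 1 contralateral knees all 8 collagens had log2 changes above 0, from 0.17 to 0.52, but none passed the test, and again 0% of genes were higher and 0% lower. Unadjusted p was 0.0340 for Col11a1 and 0.0355 for Col11a2 with an FDR of at least 0.755 for all 8, and over all genes 1383 had an unadjusted p under 0.05 by edgeR. DESeq2 and limma-voom called 0 genes. The day 1 contralateral libraries were themselves at the low end. Against naïve knees all 8 collagens had log2 changes below 0, from -0.56 to -0.14, with an edgeR FDR of 1.000 for each and 0% of genes higher and 0% lower. In that comparison 554 genes had an unadjusted p under 0.05 by edgeR, among them 3 of the 8 collagens (Col11a1, Col11a2 and Col9a3). DESeq2 called 1 gene higher and 1 lower, and limma-voom called 0. The 2 comparisons share the contralateral libraries, so their values are not independent.

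Day 7 contralateral and naïve knees were compared to see whether the uninjured limb of injured mice differed. By edgeR 0% of genes were higher and 0% lower, while 3220 had an unadjusted p under 0.05, DESeq2 called 8 higher and 0 lower, and limma-voom called 0. The 8 collagens had log2 changes of 0.19 to 0.78 (edgeR FDR at least 0.248), with 6 at an unadjusted p under 0.05 and 0 called in any of 29 alternatives. Without contralateral library 1 the changes were -0.15 to 0.43 (edgeR FDR at least 0.925), and Col2a1 went from 0.75 to -0.15. The change of the injury effect between day 1 and day 7, tested as an interaction, was called for 0 of the 8 collagens, beside 3.53% of genes higher and 0.245% lower. By edgeR 3 of the 8 had an unadjusted p under 0.05, beside 3458 of all 21262 genes. None of the 8 was called in any of 29 alternatives, DESeq2 and limma-voom among them. For Col11a1 the interaction was 0.21 on the log2 scale (edgeR FDR 0.816), and 0.47 (edgeR FDR 0.506) without contralateral library 1, so the effect of injury relative to the contralateral knee was not shown to differ between the days. Col11a2 had an interaction of -1.15 ± 0.42 (SE, edgeR FDR 0.155), and of -0.61 (edgeR FDR 0.352) without contralateral library 1.

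Ratios within a library need no scaling between libraries and show how the chains moved against each other. The log2 ratio of Col11a1 to Col11a2 TPM was -0.61 at the lowest, -0.60 at the median and -0.30 at the highest in naïve cartilage, so that Col11a2 was the more abundant of the partners. In day 7 injured knees it was 0.06, 0.53 and 0.83, with Col11a1 the more abundant in every library. All other 15 libraries were below 0, the day 7 contralateral ones at -0.99, -0.66 and -0.68. The difference of 1.02 ± 0.23 (SE) had an exact 2-sided permutation p of 0.0238, the smallest that 3 against 6 libraries allow, and an adjusted p of 0.103 over 13 tests of ratios and shares. No such test could therefore have passed 0.05 after adjustment unless several others had been as low. The exact tests against naïve knees also count the 6 naïve libraries as separate, although these hold knees of the same 6 mice. Their p-values may therefore be too small.

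The log2 ratio of Col11a1 to Col2a1 TPM was -2.97 ± 0.20 (SD, n = 6) in naïve and -2.21, -2.04 and -1.86 in day 7 injured knees. The injured libraries again lay above all others, with a difference of 0.93 ± 0.13 (SE, exact permutation p = 0.0238, adjusted 0.103). As a share of the summed TPM of the 8 collagens, Col11a1 took 7.52 ± 0.675% (SD, n = 6) in naïve and 13.8 ± 1.64% (SD, n = 3) in day 7 injured knees, and Col2a1 took 58.7 ± 3.05% and 56.4 ± 0.289%. The ratio of Col2a1 to Col1a1 moved the other way. Its log2 value was -2.35 at the lowest, -1.41 at the median and -1.20 at the highest in naïve cartilage, and -3.52, -3.22 and -3.60 after injury (difference -1.83 ± 0.22, SE, exact permutation p = 0.0238, adjusted 0.103). Col1a1 itself, at a naïve median of 12024 CPM, stood at 51090.0, 46982 and 54701 CPM in these libraries.

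TPM ratios among the other chains overlapped between the groups. The type IX pairs differed by -0.01 ± 0.07 (SE, Col9a1 to Col9a3, exact permutation p = 0.905) and -0.13 ± 0.06 (SE, Col9a2 to Col9a3, exact permutation p = 0.190). On estimated counts in place of TPM the Col9a2 to Col9a3 ratio was lower in all 3 injured libraries than in any naïve one, by -0.27 ± 0.04 (SE, exact permutation p = 0.0238). Against Col2a1 the log2 differences were -0.07 ± 0.09 (SE) for Col9a1, -0.21 ± 0.18 for Col10a1 and 0.18 ± 0.19 for Col27a1, with exact permutation p of 0.524, 0.405 and 0.405. The naïve SD of the Col9a1 to Col2a1 log2 ratio was 0.12 and that of Col10a1 to Col2a1 was 0.40.

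**Figure D3:**
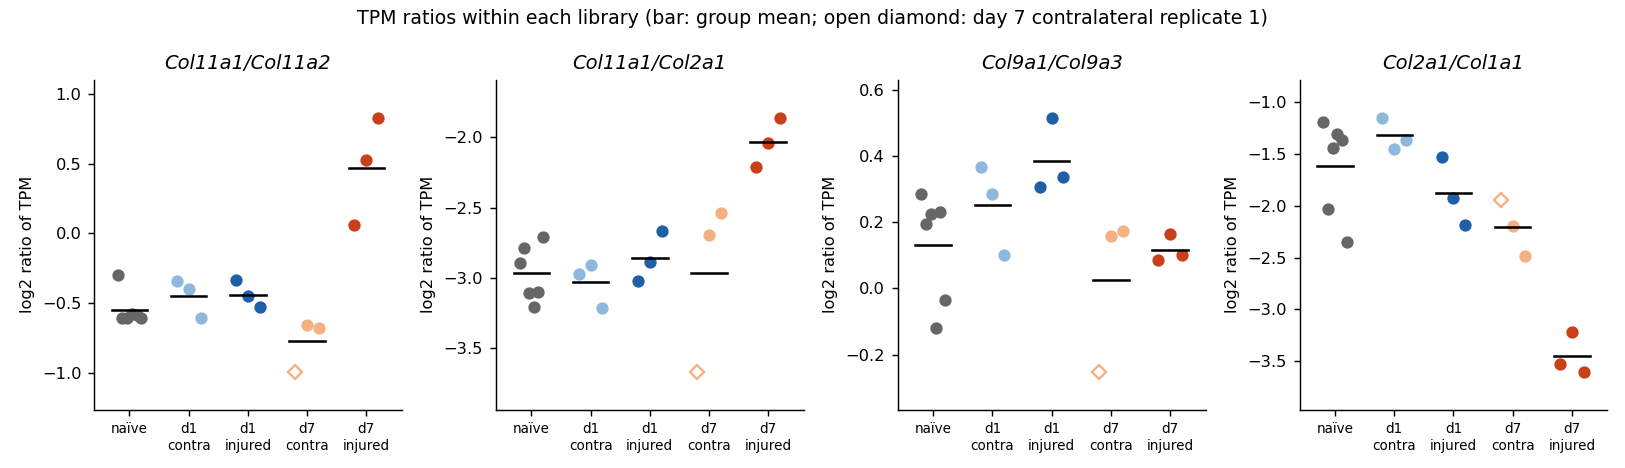
Log2 ratios of TPM within each library for Col11a1 to Col11a2, Col11a1 to Col2a1, Col9a1 to Col9a3 and Col2a1 to Col1a1 in the 5 groups; points are libraries, short lines group means, and the open diamond is day 7 contralateral library 1. The 3 day 7 injured libraries lie above the other 15 for the pairs with Col11a1 and below them for Col2a1 to Col1a1, and overlap with them for Col9a1 to Col9a3.

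The exon 2 form of Col2a1 was a small part of the gene's output. Its share of the counts in protein-coding Col2a1 transcripts was 1.46% at the lowest, 1.76% at the median and 3.78% at the highest in naïve cartilage. In day 7 injured knees it was 3.79%, 3.12% and 3.59%, and in day 7 contralateral knees 1.35%, 1.98% and 2.49%. The injured values lay above all contralateral ones and above 5 of the 6 naïve ones, while naïve library 2 overlapped with them. Behind each share stood at least 810 estimated counts (of 65227 in that library) assigned to the whole exon 2 transcript, of which reads in the exon itself are only a part, and the Wilson 95% interval of injured library 1 was 3.66 to 3.92%, which covers counting error only. The difference from naïve knees was 1.42 ± 0.41 percentage points (SE), with an exact permutation p of 0.0714 (adjusted 0.186). Against the contralateral knees it was 1.56 ± 0.385 points (SE), with p = 0.1 by the exact permutation test, the smallest that 3 against 3 allows. Without contralateral library 1 the difference was 1.26 ± 0.32 points (SE). Day 1 injured knees, at 1.48%, 2.77% and 3.10%, overlapped with the naïve and both contralateral groups, and all 3 lay below the day 7 injured libraries.

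In the fit over 63852 transcripts, the exon 2 transcript had a log2 change of 1.07 ± 0.32 (SE, edgeR FDR 0.0545) between day 7 injured and naïve knees and just missed the limit. The form without exon 2, ENSMUST00000088355, had a log2 change of 0.27 ± 0.20 (SE, edgeR FDR 0.445). The transcripts also differ at their start, where the exon 2 form begins 38 bases earlier, so reads in those bases add to its count besides those in the exon shown.

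For Col11a2, 3 transcripts each held at least 5% of the counts on average. ENSMUST00000087497, with the 63-base exon alone, took 50.8 ± 3.12% (SD, n = 6) in naïve cartilage. ENSMUST00000237989, with none of the 3 exons, took 23.2 ± 2.44%, and ENSMUST00000131134, with all 3, took 16.6 ± 0.864% (SD, n = 6). In day 7 injured knees the shares were 54.0 ± 2.36%, 19.5 ± 2.99% and 16.4 ± 1.97% (SD, n = 3). These overlapped with the naïve values, and the exact permutation p was 0.143, 0.0714 and 0.857 (adjusted 0.186 for the form with none of the exons).

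Summed over transcripts, the 63-base exon was in 69.7 ± 3.32% of counts in naïve cartilage, the 78-base exon in 21.8 ± 1.00% and the 180-base exon in 21.9 ± 1.71% (SD, n = 6). After injury the means were 72.9%, 22.2% and 22.0%. The form with the 63-base exon alone extends 877 bases beyond the end of the form with none, so that its share also counts the use of a longer 3′ end and cannot be told apart from the inclusion of the 63-base exon. Day 7 contralateral library 1 was again unlike the others, with 29.5% in the form with the 63-base exon alone and 50.9% in the form with none.

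**Figure D4:**
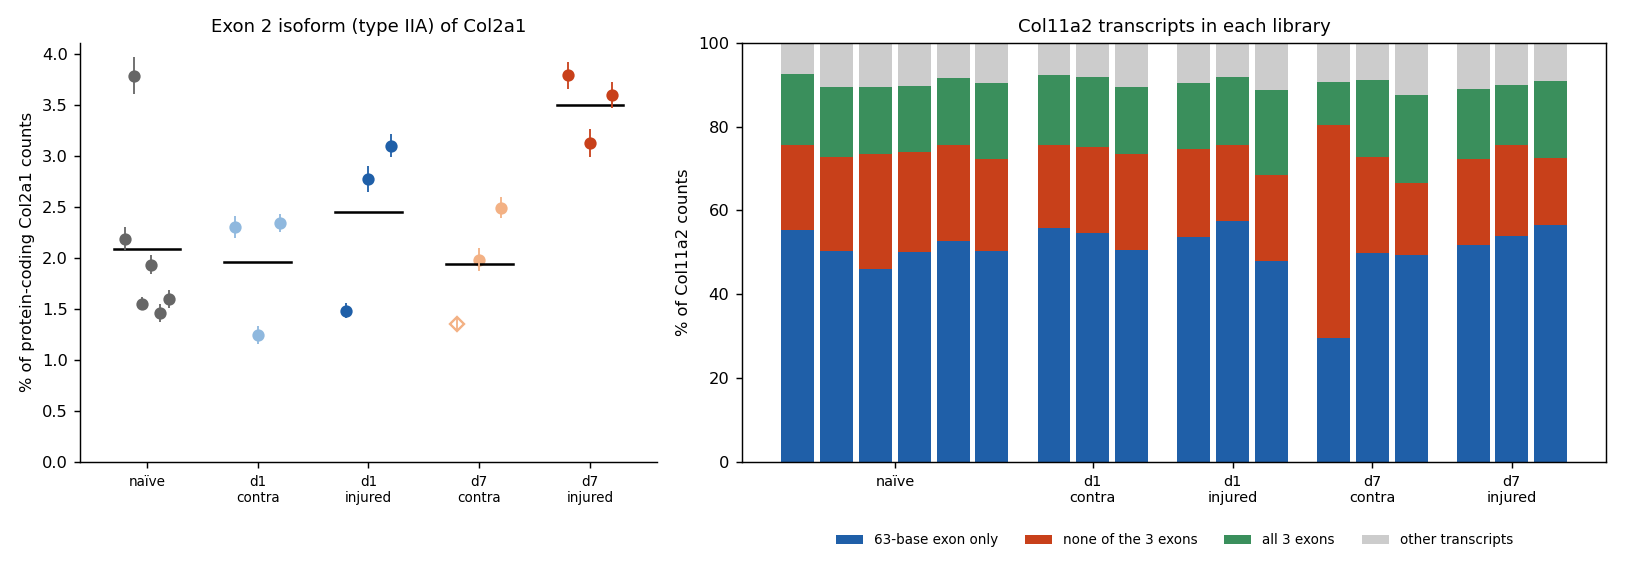
Share of Col2a1 counts in the exon 2 form (left, percent, bars are Wilson 95% intervals) and of Col11a2 counts in its 3 main transcripts (right, stacked percent) in each library of the 5 groups. The exon 2 share is 3.12 to 3.79% in day 7 injured knees against 1.35 to 2.49% in day 7 contralateral knees, and the Col11a2 shares overlap between naïve and injured knees.

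Of 41 transcripts of the 8 genes that were tested, 4 were called higher and 0 lower, beside 4.55% of all transcripts higher and 2.73% lower. All 4 belonged to Col11a1 and Col27a1. The full-length Col11a1 transcript ENSMUST00000092155, with 67 exons, took 86.4 ± 0.66% of the gene's counts in naïve cartilage and rose by 1.34 ± 0.20 on the log2 scale (SE, edgeR FDR 0.000739). The partial Col11a1 models ENSMUST00000123619 and ENSMUST00000184978 rose too (log2 change 1.11 ± 0.32 and 1.05 ± 0.23, SE, edgeR FDR 0.0442 and 0.0131), but they share exons with the full-length form. Without injured library 2 the full-length Col11a1 transcript alone was called, and without library 3 it was called with ENSMUST00000184978. The protein-coding Col27a1 transcript ENSMUST00000036300 rose by 0.75 ± 0.18 on the log2 scale (SE, edgeR FDR 0.0189), where the gene as a whole stayed under the fold limit. Its share of the gene's counts was 67.8 ± 3.38% (SD, n = 6) in naïve and 76.7 ± 2.31% (SD, n = 3) in day 7 injured knees. This Col27a1 transcript was not called without injured library 2 or 3. The transcripts were not fitted by library totals, under which the gene as a whole passed neither limit. The short Col9a1 transcript ENSMUST00000088349, which has 6 fewer exons than the long form, had a log2 change of 0.88 ± 0.31 (SE, edgeR FDR 0.0952) and was not called.

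The genes most like each collagen were found by the root-mean-square difference of centred log2 CPM over the 18 libraries, among 15988 genes, as a description. Col2a1, Col9a1, Col9a2 and Col9a3 were nearest to each other: Col9a1 to Col9a3 by 0.0945, Col9a2 to Col9a1 by 0.106 and Col2a1 to Col9a3 by 0.114. Col11a2 was nearest to Col9a3 (0.181), Col9a1 (0.192) and Kazald1 (0.203). Col11a1 stood away from its own family, with Adamts2, which removes the amino-terminal propeptide of procollagens, as its nearest gene (0.229), then Col22a1 (0.230) and B4galnt3 (0.236). The nearest cartilage collagen to Col11a1 was Col27a1, at 0.413, or Col2a1, at 0.413, without day 7 contralateral library 1.

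Col10a1 was nearest to Slc13a5, a citrate transporter (0.244), to Ihh, a signal of prehypertrophic chondrocytes (0.247), and to Smpd3 (0.275). Col27a1 had Csrnp2 (0.183), Trpv4 (0.186) and Nrbp2 (0.189) beside it. These distances share libraries and depth, and day 7 contralateral library 1 weighs in them. Without it Col2a1 kept Col9a3 as nearest (0.103), Col10a1 kept Slc13a5 (0.235), and Col11a1 had Sparc (0.153), a collagen-binding matrix protein, in place of Adamts2, while Col11a2 had Smpd3 (0.136) and Col27a1 had Plekhh2 (0.128).

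The genes that act on these collagens were taken from lists of transcription factors, processing enzymes, partners, proteases and receptors. The counts of genes called in each list against naïve knees stand beside 10.4% of all genes higher and 6.11% lower. Of 11 transcription factors, 5 were higher and 0 lower in day 7 injured than in naïve knees (median log2 change 0.20). Sox9, the master regulator that binds the Col2a1 and Col11a2 enhancers, rose 2.56-fold (21.5 ± 4.38 to 54.4 ± 15.8 CPM, SD, edgeR FDR 5.91e-05). Arid5b, a cofactor of Sox9, rose 1.84-fold and Trps1, a repressor of the GATA family, 2.38-fold (edgeR FDR 6.9e-06 and 1.14e-06). Sox6, a partner of Sox9, had a log2 change of -0.43 (edgeR FDR 0.00262), which is under the fold limit, while Runx2, a regulator of hypertrophy, was at 61.1 ± 8.54 and 60.4 ± 4.72 CPM (SD, edgeR FDR 0.996), and Mef2c had a log2 change of -0.22 (edgeR FDR 0.208).

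The machinery that hydroxylates, folds and exports procollagen was called higher in 18 of 19 genes, with a median log2 change of 1.20. Serpinh1, the collagen chaperone, rose 3.47-fold and P4ha2 and P4ha3, catalytic subunits of prolyl 4-hydroxylase, rose 5.70- and 14.2-fold (edgeR FDR 2.91e-06, 3.67e-09 and 8.62e-05). Plod2, a lysyl hydroxylase, rose 4.61-fold. P4hb, the subunit shared by the prolyl 4-hydroxylases, and Ppib, a prolyl isomerase, were the most abundant with Serpinh1 and Plod2 and rose 1.96- and 1.70-fold. Of the 12 tested genes for propeptide removal and cross-linking 11 were higher (median log2 change 1.53), with Adamts2 up 2.50-fold, the procollagen proteinase enhancer Pcolce 4.11-fold and the lysyl oxidases Lox and Loxl2 4.81- and 7.36-fold. These enzymes act on all fibrillar collagens and not on those of cartilage alone.

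Among 16 fibril and matrix partners, 9 were higher and 1 lower (median log2 change 1.16). Acan, the main proteoglycan of cartilage, rose 2.96-fold and Comp 2.63-fold (edgeR FDR 3.31e-05 and 0.000104). The small leucine-rich proteoglycans Lum, Ogn, Bgn and Dcn rose 7.24-, 5.87-, 4.93- and 2.40-fold, and the matrilin Matn4 5.15-fold. Chad, which encodes chondroadherin, fell to 0.605 of the naïve level (edgeR FDR 0.0459). The link protein gene Hapln1 and the other matrilins listed, Matn1 and Matn3, were not called.

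Of 8 tested genes for collagen breakdown, 5 were higher (median log2 change 1.49). Mmp2 and Mmp14, which act together on the cell surface, rose 9.78- and 7.08-fold, and Mrc2, an uptake receptor for collagen fragments, 3.31-fold. Mmp13, the principal collagenase of type II collagen, rose 1.84-fold (edgeR FDR 0.00774), and Ctsk, the collagenase of osteoclasts, 2.38-fold, while Mmp9, a gelatinase, had a log2 change of 0.02 (edgeR FDR 0.936). Among 7 receptors 4 were higher (median log2 change 0.60), including Ddr2, a receptor for fibrillar collagen, by 1.62-fold and the integrin chains Itgb1 by 2.01-fold and Itga11 by 6.98-fold. Itga1 had a log2 change of 0.33 (edgeR FDR 0.00668), under the fold limit.

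The 13 other collagens of fibrils and filaments were all called higher, with a median log2 change of 2.87. Col3a1 rose 12.6-fold, from 1825 ± 615 to 22659 ± 1426 CPM (SD), Col5a1, an α chain closely related to Col11a1, 9.50-fold and Col1a1 4.15-fold (edgeR FDR 1.26e-07, 1.81e-09 and 1.72e-05). Col12a1, a surface collagen of fibrous tissue, rose 9.16-fold, Col5a2 7.29-fold and Col1a2 3.76-fold. By library totals the counts higher against naïve knees were 2, 15, 10, 9, 4, 2 and 12 in the order of the lists, beside 6.0% of all genes, and Sox6, Chad, Chadl and Mmp8 were lower, beside 21.6%. Arid5b, Ddr2, Mmp13 and Ppib were among the genes named here that were then no longer called. At day 1 after injury no gene of these 7 lists was called against naïve knees, where edgeR called 0 of all 21129 genes, so this count says nothing about the lists. Against the day 7 contralateral knees, the counts called higher were 4, 18, 10, 10, 4, 3 and 10 in the order of the lists above, and 0 were lower, beside 9.33% of all genes higher and 3.23% lower. Without contralateral library 1 the counts called higher were 4, 18, 10, 9, 3, 3 and 12, and Mmp8, a neutrophil collagenase, was called lower (log2 change -0.79, edgeR FDR 0.00298), beside 9.31% of 21808 genes higher and 1.99% lower in that fit. Col1a1 was at 52440.5, 15476 and 21550.2 CPM in the contralateral libraries, so that library 1 alone lay in the injured range. Its difference between injured and contralateral knees was not called with library 1 (log2 change 0.77 ± 0.39, SE, edgeR FDR 0.188) and was called without it (1.48 ± 0.34, SE, edgeR FDR 0.00609, 2.79-fold). Mmp13 was not called either way (log2 change 0.12 and 0.03, edgeR FDR 0.808 and 0.971).

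**Figure D5:**
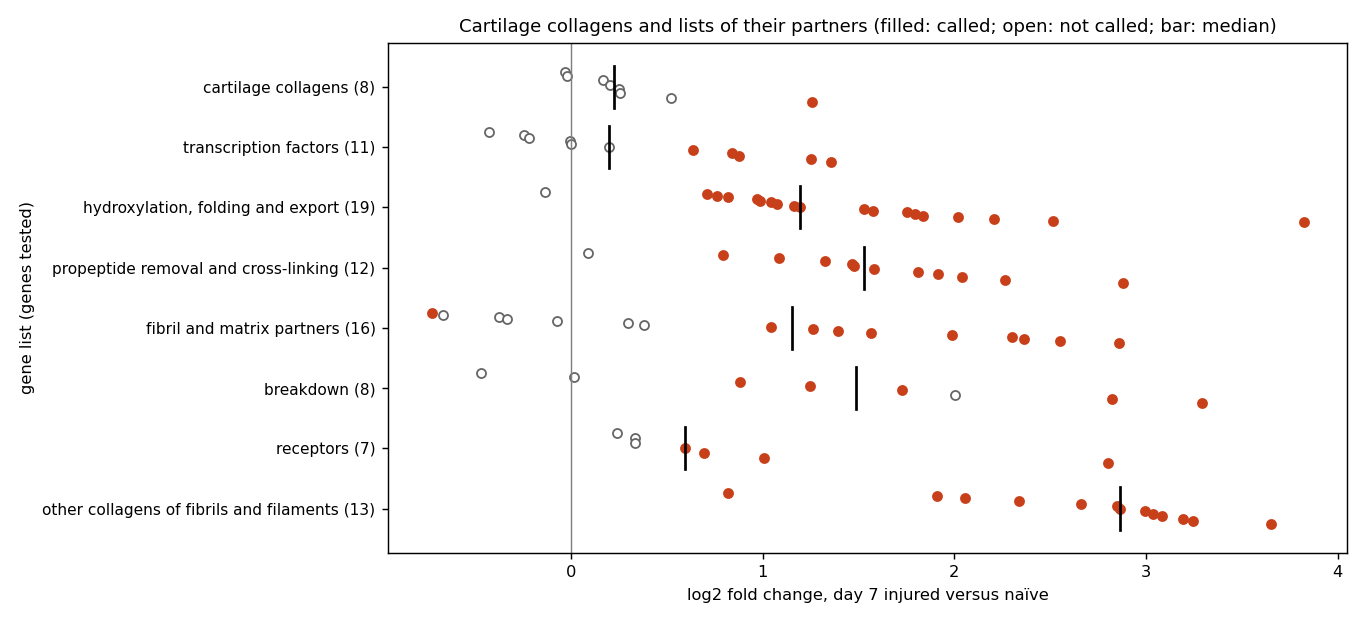
Change from naïve to day 7 injured knees (x axis, log2 fold change) for the cartilage collagens and for each list of collagen partners (1 point per gene tested, filled where called; bars are medians). The cartilage collagens centre on 0.23 with Col11a1 apart at 1.26, whereas the other collagens of fibrils and filaments centre on 2.87.

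Markers of other tissues moved in the same libraries. The 8 fibroblast markers summed to 1585 to 3181 CPM in naïve knees and to 24699, 25305 and 28509 in day 7 injured knees, most of it Col3a1, and 5 of them were called higher, among them Postn (19.5-fold), Thy1, Pdgfra and Dpt. Of 10 osteoblast markers 2 were higher (Col1a1 and Ibsp) and 2 lower (Mepe and Sost), while Bglap, the defining osteocalcin gene, had a log2 change of -0.35 and was not called. Marrow markers summed to 36523, 30137 and 23175 CPM after injury, below the naïve range of 39085 to 50122, and 4 of 12 were called lower. Osteoclast markers had 1 of 7 higher (Ctsk) and skeletal muscle markers 0 of 7 called. The osteoclast markers summed to 1896, 1910 and 1774 CPM after injury, above the naïve range of 1058 to 1684. Over all genes 10.4% were higher and 6.11% lower, so 1 of 7 is near the background. By library totals, where 6.0% of genes were higher and 21.6% lower, the fibroblast count stayed at 5, Ibsp was not called, 4 osteoblast and 4 muscle markers were lower and 10 of 12 marrow markers were lower.

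The cartilage markers themselves were uneven. Of 10 chondrocyte markers 3 were higher (Acan, Comp and Sox9) and 2 lower (Chad and Cytl1), beside the same shares over all genes, and their sum was 3221, 3906 and 4886 CPM after injury, all above the naïve range. The 10 hypertrophic markers had 3 higher (Ibsp, Mmp13 and Panx3), none of which was called by library totals, with sums of 2111, 2303 and 2272 CPM beside 1231 to 1916 in naïve knees. The sums of several lists, fibroblast, chondrocyte and hypertrophic among them, thus lay above their naïve ranges in the libraries where Col11a1 was high. The part of any of these cell types in the rise of Col11a1 was not tested. In day 7 contralateral library 1, where Col2a1 was high, the marrow sum was 73549 CPM and the osteoblast sum 53135, against 42969 and 43297 and against 16427 and 22667 in the other 2 libraries of that group, while its chondrocyte sum of 1884 lay between their 1513 and 2010. The part of this library's makeup in its collagen values was not tested either.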

How the data were processed

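Per the labels, RNA was taken from cartilage caps and made into stranded, ribosomal RNA-depleted libraries. The authors quantified reads with kallisto on mouse transcripts (GRCm38 per the study's methods, although the processing notes list GRCh38, and DESeq2 besides) and deposited estimated counts, effective lengths and TPM per transcript. Estimated counts share reads between transcripts by a model whose uncertainty was not used here.

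Transcript identifiers were matched to GENCODE genes (135107 of 137436, 98.3%; unmatched transcripts held 0.667 to 3.90% of counts). Exon sequences were read from the GRCm38 reference by the GENCODE exon coordinates. Estimated counts were summed per gene, rounded, filtered with filterByExpr, scaled by TMM and tested with edgeR 4.0.16 in R 4.3.3 (glmQLFit, glmQLFTest, Benjamini-Hochberg over all genes; called at FDR of at most 0.05 and at least 1.5-fold). Comparisons without day 7 contralateral knees used 15 libraries, the others 18. Shares and ratios were tested by exact 2-sided permutation with scipy 1.17.1, adjusted over 13 tests. Alternatives were DESeq2 1.42.0, limma-voom (limma 3.58.1), other scaling (DESeq2 size factors, library totals), filters, limits and summing, a transcript length offset, and leaving out each library. The fits were tested on simulated data. No library pair held identical counts.

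The members and lists were chosen with earlier results of these data known. Named genes were the 8 collagens, the 4 most abundant genes of each list and up to 3 called genes per direction with the largest changes, and the 3 nearest genes of each collagen. Marker genes, Hapln1, Matn1 and Matn3 were named besides, after their values were seen.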

Additional observations from a re-analysis of the deposited data

Results flagged for a closer look

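The naïve group was the only one large enough to be screened for a library far from the rest, since groups of 3 were not. Of 21 quantities examined in it, 4 had such a library, where chance alone marks about 1 in 20. Col2a1 in naïve library 3 was at 4989 CPM against 2595 to 3181 in the other 5. The exon 2 share of Col2a1 was 3.78% in naïve library 2 against 1.46 to 2.19% in the others, and the share of the form without exon 2 in the same library was 96.0% against 97.6 to 98.3%, which is the same observation seen from the other transcript. The log2 ratio of Col11a1 to Col11a2 was -0.30 in naïve library 1 against -0.61 to -0.58.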

How the results depend on the processing

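No paired analysis was possible because the labels give no replicate numbers and do not tie the knees of an animal together. The study's own analysis accounted for libraries from the same mouse pool, which the fits here do not. Col11a1 in day 7 injured against naïve knees had log2 changes of 0.95 to 1.38 and was called in 27 of 27 alternatives, and against day 1 injured knees of 0.75 to 1.44, also in 27 of 27. The number of collagens called against naïve knees was 2 with no fold limit (Col11a1 and Col27a1) and 1 to 2 when each library was left out, with 2 without naïve library 3 or injured library 1. The counts in this paragraph are not set beside the share of all genes called in each setting. They show only which collagens or transcripts crossed a limit. Against day 7 contralateral knees it was 0 at an FDR limit of 0.01, with DESeq2 size factors, with no filter, with the transcript length offset and with the groups compared alone, and 0 to 2 when each library was left out. It was 2 with library totals in place of TMM (Col11a1 higher and Col9a2 lower). It was 0 without day 1 contralateral library 1, 2 or 3, day 1 injured library 1, naïve library 1, 2 or 6, contralateral library 3 or injured library 2 or 3. Without contralateral library 2 the 2 called were Col11a2 and Col9a2, both lower (log2 change -0.90 and -0.92, edgeR FDR 0.0464 and 0.0453), and Col11a1 was not called. The number of transcripts called was 1 to 4 when each library was left out, with 1 without injured library 2 and 2 without library 3. The ratio of Col9a2 to Col9a3 differed by -0.27 (exact permutation p = 0.0238) on estimated counts in place of TPM. The cause of these changes was not tested. No called value changed sign. Leaving out day 7 contralateral library 1 in the search for nearest genes and in the lists of partners, and scaling by library totals, were chosen after seeing the data. Wilson intervals of the exon 2 shares cover counting error only, and the part of depth and of read assignment in the spread of these shares was not tested.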
